A study of Mus musculus with 12 samples.

Results

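Messenger RNA levels of 9 liver genes of glucose and glycogen metabolism were followed across 4 groups of mouse livers. They were taken by gene symbol from the deposited read count tables: *Pck1*, *G6pc*, *Fbp1*, *Pfkfb1*, *Pfkl*, *Slc2a2*, *Gys2*, *Pygl* and *Ppp1r3b*. These are 9 of the 20093 genes listed in both tables, one for chow and one for the diet group, and all 9 passed the filter on low counts. Each group held 3 libraries, so 12 libraries entered. The mice were C57BL/6N males of 4 to 6 months whose *Elavl1* alleles, encoding the RNA-binding protein HuR, were floxed in every group. Livers labelled *HuR*Hep-/- came from mice given AAV8-Tbg-Cre, a virus whose Tbg promoter drives Cre in hepatocytes, so other liver cells keep the gene. WT livers came from floxed mice given AAV8-Tbg-null. Both genotypes were studied on normal chow and after 16 weeks on a diet rich in fat, cholesterol and fructose, called HFCF, with 40 kcal% fat, 2% cholesterol and 20 kcal% fructose. The methods of the study describe a different cross, with albumin-Cre and younger mice, and the labels are followed here.

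The liver keeps blood glucose steady by storing glucose as glycogen after meals and by releasing it between them. Gluconeogenesis builds glucose from lactate, glycerol and amino acids, glycolysis breaks it down, and the opposing steps are carried by different enzymes so that one direction can be favoured. Glucagon and glucocorticoids raise transcription of the gluconeogenic enzymes during fasting, insulin represses it, and HuR is known for binding AU-rich stretches in the 3′ untranslated regions of messenger RNAs.

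Levels are given as CPM, read counts scaled for library depth with trimmed mean of M-values (TMM) factors over all 12 libraries. Library totals ran from 30071731 to 35949203 counts, and the members had between 836 and 134864 counts in a library. *Elavl1*, the targeted gene, had 938, 876 and 948 counts in the chow WT livers and 1475, 1265 and 1261 counts in the chow livers labelled *HuR*Hep-/-, or 30.4 ± 0.947 against 40.2 ± 2.19 CPM (SD, n = 3). On HFCF it had 904, 791 and 849 counts in WT and 1299, 1242 and 1271 counts in the livers labelled *HuR*Hep-/-, or 23.9 to 27.0 against 32.2 to 34.2 CPM. It was therefore higher, not lower, in the livers labelled as deleted, by 0.41 on the log2 scale (standard error 0.068, limma adjusted p = 0.0219) on chow and by 0.38 (0.072, adjusted p = 0.0327) on HFCF. When each library was left out in turn, the call held on chow only without WT replicate 2 or *HuR*Hep-/- replicate 3, and on HFCF only without WT replicate 3, while the estimate stayed between 0.36 and 0.45. Every genotype direction in the following text is a direction between labels, with *Elavl1* moving the other way from the label. The deposited counts are per gene, so reads from floxed exons and from the rest of *Elavl1* cannot be told apart. The hepatocyte marker list checked the tissue: its 7 measured genes summed to between 63496 and 122991 CPM, while summed neutrophil markers stayed between 0.677 and 1.90 CPM.

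Across the members, 6 differences passed the test, 5 of them between diets and 1 between genotypes. A gene is called here when limma's adjusted p is at most 0.05. Between genotypes on chow 0 of 9 members were called, where 4.23% of 13526 tested genes were, and 2.24% were called with a fold change of at least 1.5. One member, *Gys2*, had an unadjusted p under 0.05 there, against 23.5% of all tested genes, and limma with voom weights called 0. On HFCF, 1 of 9 was called between genotypes, against 6.79% of 14295 genes. None of the members was called with a fold of at least 1.5, against 3.62% of genes. Between chow and HFCF, 3 of 9 were called in WT, against 24.1% of 14535 genes, and 2 of these with a fold of at least 1.5, against 9.38%. In the livers labelled *HuR*Hep-/-, 2 of 9 were called between diets, against 38.9% of genes, and 0 with the fold, against 19.1%. An unadjusted limma p under 0.05 was found for 4 of 9 members between genotypes on HFCF, against 29.5% of genes. Between diets it was found for 4 of 9 in WT (37.9% of genes) and 3 of 9 in the livers labelled *HuR*Hep-/- (48.2%). With 9 members these shares moved with single libraries. Between diets in WT, 1 of 9 was called without chow WT replicate 1 or 2 or without HFCF WT replicate 2 or 3. Between genotypes, 0 of 9 were called on HFCF without WT replicate 1 or any 1 of the *HuR*Hep-/- libraries, and 1 of 9 on chow without *HuR*Hep-/- replicate 3. The members were not tested against other genes. The members' median log2 difference was -0.02 for genotype on chow, -0.10 for genotype on HFCF, -0.09 for diet in WT and -0.04 for diet in the livers labelled *HuR*Hep-/-, where the medians over all tested genes were 0.005, -0.002, 0.010 and 0.002.

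**Figure D1:**
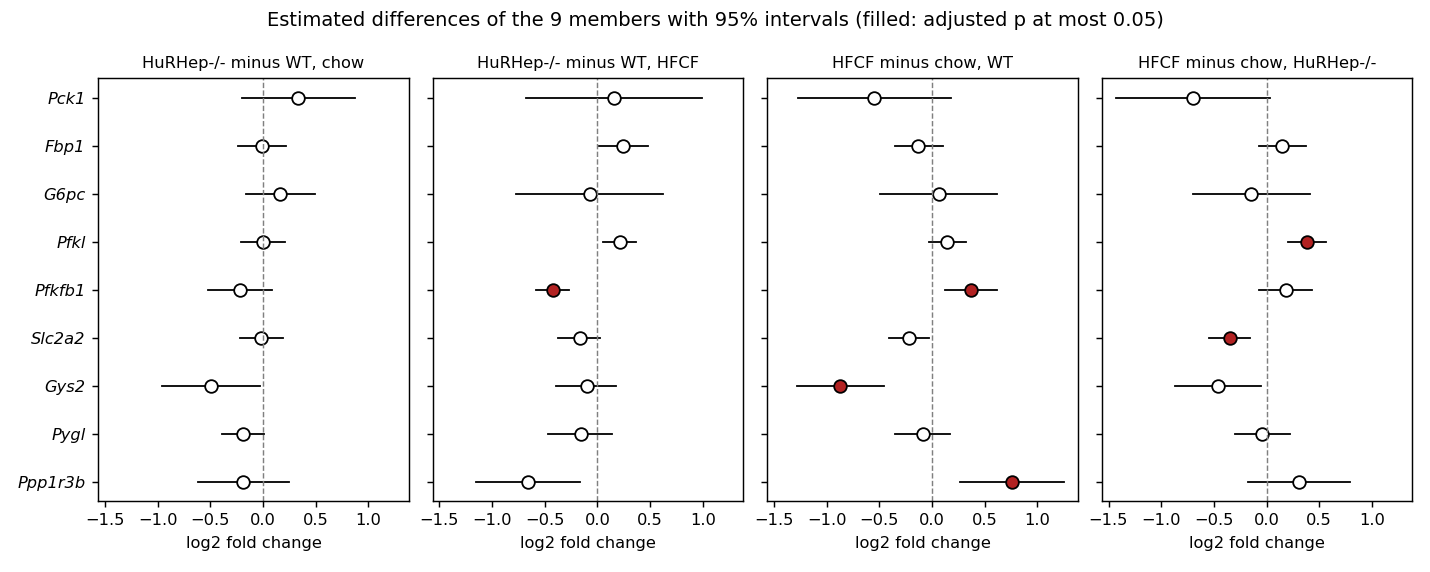
Log2 fold change (x axis) of the 9 members (rows) in the 4 comparisons between groups, with 95% intervals from limma, and filled points where the adjusted p is at most 0.05. Filled points are *Pfkfb1* between genotypes on HFCF, *Pfkfb1*, *Gys2* and *Ppp1r3b* between diets in WT, and *Pfkl* and *Slc2a2* between diets in the livers labelled *HuR*Hep-/-.

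The 3 libraries of one group lay wholly above or below those of the other for 0 of 9 members between genotypes on chow, against 29.5% of all tested genes. The same held for 3 of 9 between genotypes on HFCF (36.8% of genes), 5 of 9 between diets in WT (37.6%) and 2 of 9 between diets in the livers labelled *HuR*Hep-/- (54.6%). Whether the diet difference itself depended on genotype was tested as an interaction. It was called by limma for 0 of 9 members and for 0% of the 14535 genes. No member had an unadjusted interaction p under 0.05, against 14.4% of genes, and voom weights called 0 members. The estimate had the same sign on both diets for 6 of 9 members between genotypes (64.0% of 13437 genes). It had the same sign in both genotypes for 7 of 9 members between diets (78.1% of 14535 genes). Chow and HFCF libraries were deposited as separate tables, so a diet difference and a difference between the sets of libraries cannot be told apart. In bulk liver, fewer hepatocytes and less RNA per hepatocyte cannot be told apart.

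Levels between genes are comparable only per length. Divided by merged exon length in kilobases and averaged over the 12 libraries, *Pck1* stood highest with 672 CPM per kb, followed by *Fbp1* with 554 and *G6pc* with 165. The glycogen enzymes *Gys2* and *Pygl* had 84.0 and 54.5 CPM per kb and the glucose transporter gene *Slc2a2* had 48.6. The merged length joins the exons of all annotated transcripts. It was 6895 bases for *Pygl* and 2657 for *Gys2*, while their coding sequences have 2550 and 2112 bases. The order of these 2 genes therefore depends on the annotation. *Ppp1r3b*, *Pfkfb1* and *Pfkl* were lowest, with 16.6, 10.3 and 5.03 CPM per kb. The gluconeogenic enzymes thus stood above the glycolytic members on this scale in these livers.

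*Pck1* (ENSMUSG00000027513, GRCm38 chr2:173153048-173159273, plus strand) encodes the cytosolic phosphoenolpyruvate carboxykinase, which commits oxaloacetate to gluconeogenesis. Its level was 2285, 2159 and 2804 CPM in chow WT livers, 2142, 3078 and 4151 in chow livers labelled *HuR*Hep-/-, 1239, 1848 and 1939.8 in HFCF WT, and 1059, 2117 and 2838 in HFCF livers labelled *HuR*Hep-/-. The HFCF WT libraries all lay below the chow WT libraries, while the groups labelled *HuR*Hep-/- were spread so widely that they overlapped with their WT group on either diet. The group means were 2416 ± 342, 3124 ± 1005, 1676 ± 381 and 2005 ± 895 CPM (SD, n = 3 each). The estimated difference for diet was -0.55 on the log2 scale in WT (standard error 0.33, adjusted p = 0.253) and -0.70 in the livers labelled *HuR*Hep-/- (0.33, adjusted p = 0.115). For genotype it was 0.33 on chow (0.23, adjusted p = 0.415) and 0.16 on HFCF (0.36, adjusted p = 0.802), none of them called. The diet difference in the livers labelled *HuR*Hep-/- was called only when HFCF *HuR*Hep-/- replicate 3 was left out among the leave-one-out fits (-1.01, adjusted p = 0.0385). The 95% interval of the genotype difference on HFCF ran from -0.68 to 0.99.

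The promoter of *Pck1* is shown because cAMP and hormones act on it and because it is the most highly expressed member per length. The RefSeq sequence (GRCm38.p6, chr2:173152823-173153122, plus strand) covers 250 bases before to 50 after the start site. Capitals mark the cAMP response element core ACGTCA, at positions -91 to -86 from the start, and the reverse of GTTAAT, the half-site core of hepatocyte nuclear factor HNF1, at -192 to -187.
Pck1 promoter: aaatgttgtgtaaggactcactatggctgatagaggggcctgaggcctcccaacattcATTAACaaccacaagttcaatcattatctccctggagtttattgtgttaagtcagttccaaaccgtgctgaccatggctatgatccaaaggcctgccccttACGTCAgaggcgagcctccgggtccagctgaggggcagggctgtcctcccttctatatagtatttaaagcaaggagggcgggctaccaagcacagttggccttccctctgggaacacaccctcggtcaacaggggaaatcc

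*Fbp1* (ENSMUSG00000069805, chr13:62864753-62888282, minus strand) encodes fructose-1,6-bisphosphatase, which reverses the phosphofructokinase step. It had 866, 1007 and 952 CPM in chow WT, 850.4, 921 and 1024 in chow livers labelled *HuR*Hep-/-, 759, 913 and 924 in HFCF WT, and 1017, 1087 and 993 in HFCF livers labelled *HuR*Hep-/-. On HFCF the *HuR*Hep-/- libraries all lay above the WT libraries, and the groups of every other comparison overlapped. That difference was 0.24 on the log2 scale (standard error 0.099, adjusted p = 0.154) and was not called. The other estimates were -0.01 for genotype on chow, -0.13 for diet in WT and 0.15 for diet in the livers labelled *HuR*Hep-/-, with adjusted p of 0.963, 0.394 and 0.259.

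*G6pc* (ENSMUSG00000078650, chr11:101367561-101377903, plus strand) encodes the catalytic subunit of glucose-6-phosphatase, the last step of both gluconeogenesis and glycogen breakdown. It had 325, 418 and 389 CPM in chow WT, 348, 432 and 488 in chow livers labelled *HuR*Hep-/-, 413, 343 and 428 in HFCF WT, and 224, 492 and 489 in HFCF livers labelled *HuR*Hep-/-. All groups overlapped, and their means lay between 377 ± 47.5 and 423 ± 70.0 CPM (SD, n = 3). The 4 estimates lay between -0.15 and 0.16 with adjusted p from 0.519 to 0.893. A single library carried much of the spread: without HFCF *HuR*Hep-/- replicate 1 the genotype difference on HFCF turned from -0.07 to 0.31 (adjusted p = 0.229) and the diet difference in the livers labelled *HuR*Hep-/- turned from -0.15 to 0.23 (adjusted p = 0.270).

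The *G6pc* promoter (RefSeq, GRCm38.p6, chr11:101367466-101367765, plus strand, same span) is shown because it carries more of the searched motifs than those of the other members. Capitals mark, from the 5′ end, GTTAAT at -221 to -216, a reversed CCAAT box at -214 to -210, a forward CCAAT box at -204 to -200, the insulin response core TGTTTTG at -174 to -168, the forkhead core TGTTTNC at -141 to -135 and a TATA box (TATAAA) at -29 to -24.
G6pc promoter: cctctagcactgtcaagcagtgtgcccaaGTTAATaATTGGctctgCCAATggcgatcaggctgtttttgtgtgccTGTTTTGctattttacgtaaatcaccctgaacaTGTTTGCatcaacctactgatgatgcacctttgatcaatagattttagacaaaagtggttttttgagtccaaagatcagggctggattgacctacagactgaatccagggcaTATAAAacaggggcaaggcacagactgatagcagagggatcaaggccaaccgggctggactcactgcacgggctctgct

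*Pfkl* (ENSMUSG00000020277, chr10:77986947-78010083, minus strand) encodes the liver subunit of phosphofructokinase, the committed step of glycolysis. It rose with HFCF in the livers labelled *HuR*Hep-/-. Its level was 27.5, 30.6 and 33.9 CPM in chow WT, 29.3, 32.0 and 29.8 in chow livers labelled *HuR*Hep-/-, 32.0, 34.6 and 34.7 in HFCF WT, and 40.9, 37.2 and 40.7 in HFCF livers labelled *HuR*Hep-/-. The last group lay wholly above each of the others. The rise from chow to HFCF was 0.38 on the log2 scale (standard error 0.081, adjusted p = 0.00399), a fold of 1.30. It was called in all 12 fits that left out one library, with adjusted p from 0.00270 to 0.0186. In WT the diet difference was 0.14 (0.081, adjusted p = 0.216), and the interaction of 0.24 (0.11, adjusted p = 0.370) did not show that the genotypes responded differently. On HFCF the difference between genotypes was 0.21 (0.068, adjusted p = 0.0988), and on chow it was -0.0041 (0.091, adjusted p = 0.985).

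*Pfkfb1* (ENSMUSG00000025271, chrX:150588229-150643878, plus strand) encodes the liver isoform of the bifunctional enzyme that makes and removes fructose-2,6-bisphosphate, the activator of phosphofructokinase and inhibitor of fructose-1,6-bisphosphatase. It was the only member called between genotypes, on HFCF. It had 38.7, 34.6 and 47.1 CPM in chow WT, 31.4, 31.7 and 39.9 in chow livers labelled *HuR*Hep-/-, 53.4, 52.6 and 48.5 in HFCF WT, and 40.2, 37.9 and 38.3 in HFCF livers labelled *HuR*Hep-/-. The HFCF WT libraries stood above every other library, and the HFCF *HuR*Hep-/- libraries overlapped with both chow groups. On HFCF it fell by 0.42 on the log2 scale in the livers labelled *HuR*Hep-/- (standard error 0.067, adjusted p = 0.0234), which is 0.746 of the WT level. The estimate on chow was -0.22 (0.13, adjusted p = 0.371), and the interaction was -0.19 (0.16, adjusted p = 0.635). From chow to HFCF it rose by 0.37 in WT (0.11, adjusted p = 0.0366), whereas the estimate in the livers labelled *HuR*Hep-/- was 0.18 (0.11, adjusted p = 0.226).

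Both *Pfkfb1* calls depended on single libraries. The genotype call on HFCF was lost without HFCF WT replicate 1 (adjusted p = 0.0719) and without HFCF *HuR*Hep-/- replicate 1, 2 or 3 (0.0937, 0.0916 and 0.0724), while the estimate stayed between -0.46 and -0.38. The diet call in WT was lost without chow WT replicate 1 or 2 (adjusted p = 0.107 and 0.109), without HFCF WT replicate 1, 2 or 3 (0.102, 0.0706 and 0.0575) and without HFCF *HuR*Hep-/- replicate 2 (0.0505), with estimates from 0.27 to 0.49. A fit on the 6 WT libraries alone gave 0.38 with an adjusted p of 0.0639. Of the exons of *Pfkfb1*, 123 bases lie opposite the gene *Apex2*. No other member shared exon bases with another annotated gene.

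*Slc2a2* (ENSMUSG00000027690, chr3:28697903-28731359, plus strand) encodes GLUT2, the transporter that carries glucose into and out of hepatocytes. It fell with HFCF in the livers labelled *HuR*Hep-/-. Its level was 303, 303 and 321 CPM in chow WT, 271, 309.8 and 337 in chow livers labelled *HuR*Hep-/-, 263, 252 and 282 in HFCF WT, and 217, 257 and 242 in HFCF livers labelled *HuR*Hep-/-. Both HFCF groups lay wholly below their own chow group. It fell by 0.35 on the log2 scale in the livers labelled *HuR*Hep-/- (standard error 0.088, adjusted p = 0.00911), to 0.782 of the chow level, and was called in all 12 fits that left out one library (adjusted p from 0.00435 to 0.0419). In WT the estimate was -0.22 (0.088, adjusted p = 0.0897). The interaction was -0.13 with a 95% interval from -0.41 to 0.14. Genotype estimates were -0.02 on chow (adjusted p = 0.932) and -0.17 on HFCF (adjusted p = 0.212).

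The promoters of *Slc2a2* and *Pfkl*, which were called in opposite directions between diets in the same livers, are shown side by side because their base composition differs. *Slc2a2* (chr3:28697653-28697952, plus strand) had 48.0% G and C and 2 CpG pairs, and *Pfkl* (chr10:78009758-78010057, minus strand) had 62.3% and 20, where the medians over 32851 RefSeq promoters were 52.7% and 7. Capitals mark reversed CCAAT boxes, at -77 to -73 and -56 to -52 in *Slc2a2*. None of the searched letters occur in the *Pfkl* window.
Slc2a2 promoter: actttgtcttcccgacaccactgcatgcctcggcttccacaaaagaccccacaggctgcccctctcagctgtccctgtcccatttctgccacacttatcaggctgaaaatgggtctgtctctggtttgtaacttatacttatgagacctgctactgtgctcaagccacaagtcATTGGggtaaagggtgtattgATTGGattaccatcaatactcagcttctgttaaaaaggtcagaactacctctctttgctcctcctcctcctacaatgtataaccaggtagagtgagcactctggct
Pfkl promoter: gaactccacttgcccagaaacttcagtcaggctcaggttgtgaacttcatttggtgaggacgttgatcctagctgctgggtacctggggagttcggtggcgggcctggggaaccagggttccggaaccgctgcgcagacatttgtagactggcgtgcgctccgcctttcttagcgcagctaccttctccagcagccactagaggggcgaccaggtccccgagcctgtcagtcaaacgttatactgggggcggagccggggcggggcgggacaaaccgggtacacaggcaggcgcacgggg

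*Gys2* (ENSMUSG00000030244, chr6:142422613-142473109, minus strand) encodes liver glycogen synthase, which lengthens glycogen chains. It fell with HFCF in WT livers, with the largest fall among the called members. Its level was 337, 301 and 319.6 CPM in chow WT, 162, 229 and 309.7 in chow livers labelled *HuR*Hep-/-, 175, 177 and 169.8 in HFCF WT, and 139, 160.3 and 198 in HFCF livers labelled *HuR*Hep-/-. Chow WT stood wholly above HFCF WT, and chow *HuR*Hep-/- libraries reached from the HFCF range up into the chow WT range. In WT it fell by 0.87 on the log2 scale (standard error 0.19, adjusted p = 0.00713), to 0.546 of the chow level, and the call held in all 12 fits that left out one library (adjusted p from 0.00204 to 0.0304).

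In the livers labelled *HuR*Hep-/- the diet estimate for *Gys2* was -0.46 (standard error 0.19, adjusted p = 0.0703). It was called without chow *HuR*Hep-/- replicate 1 (-0.71, adjusted p = 0.00598) or HFCF *HuR*Hep-/- replicate 3 (-0.60, adjusted p = 0.0418). Between genotypes on chow the estimate was -0.49 (0.20, adjusted p = 0.195), and without chow *HuR*Hep-/- replicate 3 it was -0.72 and called (adjusted p = 0.0442). On HFCF it was -0.10 (0.12, adjusted p = 0.607). The interaction of 0.41 had a 95% interval from -0.17 to 0.99, so a different diet effect in the 2 genotypes was neither shown nor bounded closely.

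*Pygl* (ENSMUSG00000021069, chr12:70190811-70231488, minus strand) encodes liver glycogen phosphorylase, which frees glucose units from glycogen. It had 387, 430.0 and 412 CPM in chow WT, 342, 333 and 400.1 in chow livers labelled *HuR*Hep-/-, 357, 457 and 348 in HFCF WT, and 366, 376 and 303 in HFCF livers labelled *HuR*Hep-/-. Every pair of groups compared overlapped. The genotype estimates were -0.19 on chow (standard error 0.088, adjusted p = 0.235) and -0.16 on HFCF (0.13, adjusted p = 0.433), and the diet estimates were -0.09 in WT and -0.04 in the livers labelled *HuR*Hep-/- (adjusted p = 0.612 and 0.802).

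*Ppp1r3b* (ENSMUSG00000046794, chr8:35375739-35388139, plus strand) encodes the hepatic glycogen-targeting subunit of protein phosphatase 1, which brings the phosphatase to glycogen synthase and thereby activates it. It rose with HFCF in WT livers. Its level was 77.6, 76.9 and 110.2 CPM in chow WT, 62.9, 72.1 and 97.4 in chow livers labelled *HuR*Hep-/-, 115, 179 and 155 in HFCF WT, and 73.4, 95.3 and 119.7 in HFCF livers labelled *HuR*Hep-/-. The HFCF WT libraries lay above both chow groups, and the lowest of them overlapped with the highest of the HFCF *HuR*Hep-/- libraries. The rise in WT was 0.76 on the log2 scale (standard error 0.22, adjusted p = 0.0291), a fold of 1.70. It lost its call without chow WT replicate 1 or 2 (adjusted p = 0.102 and 0.0771) or HFCF WT replicate 2 or 3 (0.0801 and 0.0828), with estimates from 0.62 to 0.94. In the livers labelled *HuR*Hep-/- the diet estimate was 0.31 (0.22, adjusted p = 0.295), and the interaction was -0.45 (0.32, adjusted p = 0.535). Between genotypes on HFCF the estimate was -0.66 (0.21, adjusted p = 0.0956), and on chow it was -0.19 (0.19, adjusted p = 0.588).

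**Figure D2:**
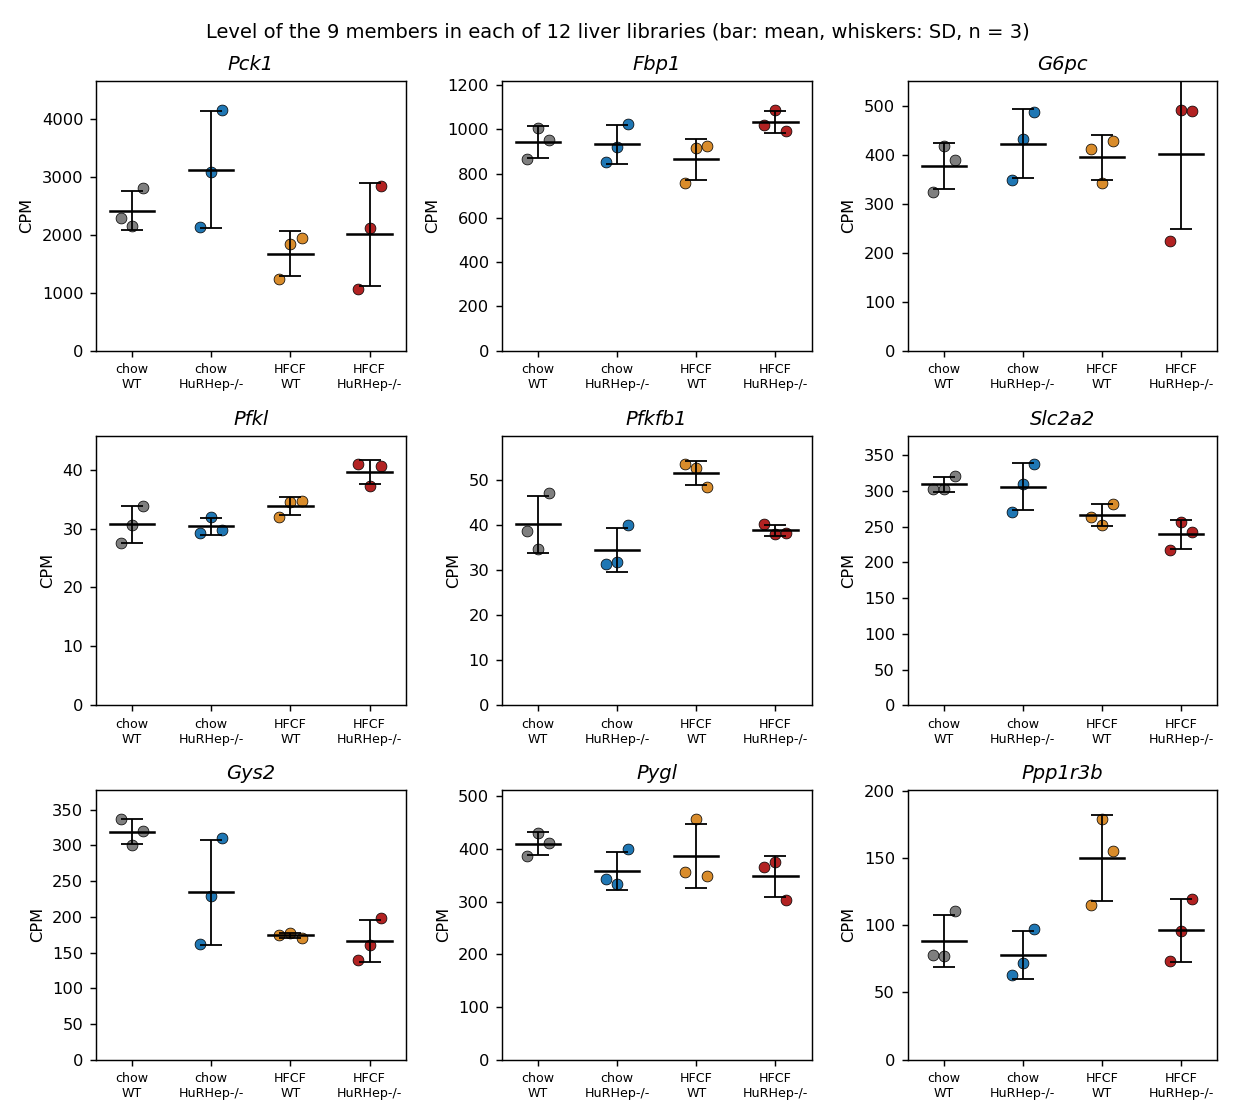
Level in CPM (y axis, from 0) of each member in the 12 libraries, by group on the x axis. Points are single libraries, horizontal bars the mean and whiskers the SD (n = 3). *Gys2* drops from a mean of 319 CPM in chow WT to 174 in HFCF WT, while *Ppp1r3b* goes from 88.2 to 149.9.

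Within WT livers the glycogen genes therefore went different ways between diets: the synthase mRNA was lower on HFCF, the mRNA of its phosphatase subunit was higher, and *Pygl* was not called. Summed hepatocyte markers were lower on HFCF, with 68808 to 79600.1 CPM in WT against 100319 to 122991 on chow. In the livers labelled *HuR*Hep-/- they were 63496 to 67163 CPM on HFCF and 82672 to 88715 on chow. Of the 7 tested genes of that list, 4 were called lower between diets in WT and 5 in the livers labelled *HuR*Hep-/-, and 0 were called higher in either. The same sums lay wholly lower in the livers labelled *HuR*Hep-/- than in WT on either diet, with 0 of 7 genes called lower on chow and 1 of 7 on HFCF. Their part in the fall of *Gys2* and *Slc2a2* between diets and of *Pfkfb1* between genotypes was not tested.

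Genes of other cell types moved between some groups as well. Over all tested genes, 6.79% were called between genotypes on HFCF. Between diets, 24.1% were called in WT and 38.9% in the livers labelled *HuR*Hep-/-. Summed cholangiocyte markers were 133 to 242 CPM in HFCF livers labelled *HuR*Hep-/-, wholly above the 38.6 to 87.4 CPM of HFCF WT, and 2 of 5 tested genes of that list were called higher between genotypes. Between diets in the livers labelled *HuR*Hep-/-, all 5 of 5 were called higher. Stellate cell markers had 464 to 556 CPM there against 181 to 270.3 CPM on chow, and 7 of 7 were called higher. Macrophage markers had 305 to 505 CPM against 203 to 299.7 CPM, with 4 of 8 called higher. Endothelial markers had 139 to 143 CPM against 109 to 131 CPM, with 2 of 7 called higher, and 3 of 5 lymphocyte markers were called higher, with a median log2 difference of 1.25 over the list. Summed markers of hepatocytes near the central vein were 6527 to 7999 CPM in HFCF livers labelled *HuR*Hep-/-, below the 9869 to 11354 CPM of HFCF WT, with 2 of 7 called lower. Markers of hepatocytes near the portal vein had 3917 to 6117 CPM in HFCF WT and 7651 to 8499 CPM in chow WT, with 5 of 7 called lower. Between diets in the livers labelled *HuR*Hep-/-, 4 of 7 markers of each of these 2 hepatocyte lists were called lower. In WT, macrophage markers had 219.5 to 355 CPM on HFCF against 144 to 185 CPM on chow, with 3 of 8 called higher, and 2 of 7 stellate cell markers were called higher. Cholangiocyte and endothelial lists had 0 of 5 and 0 of 7 called between diets in WT, and lymphocyte markers 1 of 5 higher. Between genotypes on chow, macrophage markers had 203 to 299.7 CPM in the livers labelled *HuR*Hep-/-, wholly above WT. Their estimates were higher for 8 of 8 genes, with 0 called. On HFCF, macrophage and lymphocyte estimates between genotypes were higher for 8 of 8 and 5 of 5 genes, with 0 called. The part of these shifts in the differences of *Pfkfb1*, *Pfkl*, *Slc2a2*, *Gys2* and *Ppp1r3b* was not tested.

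Several members varied together between the libraries of one group. In chow livers labelled *HuR*Hep-/-, replicate 1 was the lowest library for 8 of 9 members and replicate 3 the highest for 8 of 9, where over all tested genes those libraries were lowest for 33.1% and highest for 36.4%. On the log2 scale *Pck1* deviated from the group mean by -0.49 in the first and 0.46 in the second, and *Gys2* deviated by -0.48 and 0.46. In HFCF livers labelled *HuR*Hep-/-, replicate 1 was lowest for *Pck1*, *G6pc*, *Slc2a2*, *Gys2* and *Ppp1r3b*, with deviations of -0.81 for *Pck1* and -0.75 for *G6pc*. *Fbp1*, *Pfkl*, *Pfkfb1* and *Pygl* did not share that pattern there.

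Genes known to follow feeding were read beside these libraries. Some of them, such as *Pdk4*, *Srebf1* and *Ppargc1a*, also stand in the wider pathway lists. A list of 9 genes that fasting raises, none of them a member, averaged -0.36 in HFCF *HuR*Hep-/- replicate 1 and 0.46 in replicate 3 against the group mean, and a list of 8 genes that feeding raises averaged 0.40 and -0.47. *Pck1* deviated in these libraries by -0.81 and 0.62. In the chow livers labelled *HuR*Hep-/- the mean of the fasting list stayed between -0.05 and 0.05, and *Pck1* ranged from -0.49 to 0.46. Genes of that list went opposite ways there. Over replicates 1 to 3, *Tat* had 779, 1395 and 1694 CPM and *Igfbp1* had 44.6, 74.2 and 86.5. *Pdk4* had 2.46, 1.70 and 0.985 CPM and *Cyp4a14* had 326, 284 and 230.1. The 13 clock genes averaged between -0.15 and 0.16 in any library against its group. Single clock genes moved opposite ways, so this mean can hide shifts. Over replicates 1 to 3 of the chow livers labelled *HuR*Hep-/-, *Arntl* had 2.55, 0.588 and 0.462 CPM. *Per1* had 19.0, 43.4 and 42.8 CPM there and *Ciart* had 5.74, 16.5 and 35.9. In HFCF livers labelled *HuR*Hep-/-, *Per1* had 10.6, 40.4 and 44.0 CPM and *Ciart* had 5.41, 13.5 and 19.1. *Dbp* had 177, 164 and 167 CPM in the latter group. Between diets the feeding list was called higher for 5 of 8 genes in WT and for 5 of 8 in the livers labelled *HuR*Hep-/-. Over all tested genes, 24.1% and 38.9% were called there. Between genotypes on chow its sum was 2213 to 3097 CPM in the livers labelled *HuR*Hep-/-, wholly below the 5082 to 9199.8 CPM of WT, with 1 of 8 genes called lower. The genes of the list did not share that direction, since 4 had higher and 4 lower estimates, with a median log2 difference of -0.00. Of the fasting list, 3 of 9 genes were called higher between diets in WT, while the livers labelled *HuR*Hep-/- had 2 called higher and 1 called lower. Between genotypes on chow the estimates were positive for 8 of its 9 genes, with a median of 0.25, and 0 were called. The part of feeding state or time of day in the members' spread was not tested.

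**Figure D3:**
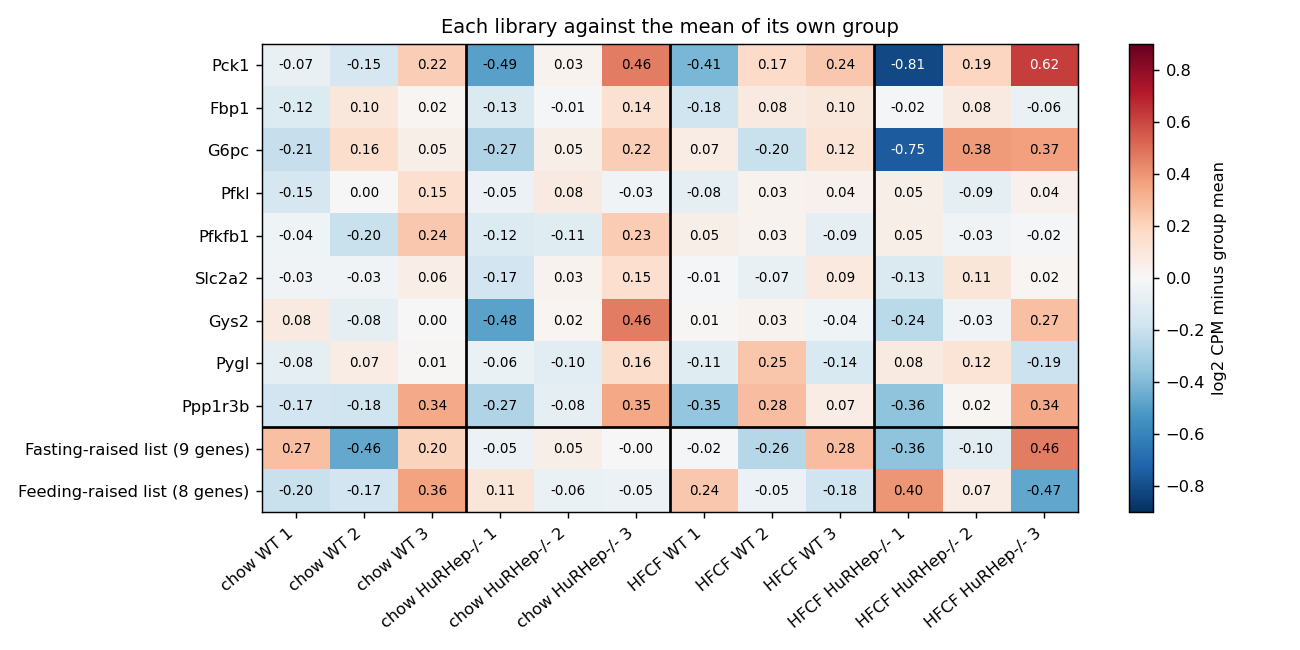
Deviation of each of the 12 libraries (columns) from the mean of its own group, as log2 CPM (colour and printed value), for the 9 members and for the mean of the fasting-raised and feeding-raised lists (rows). In chow *HuR*Hep-/- replicate 1 (blue, below the group mean) 8 of 9 members have their lowest value of the group, and *Pck1* spans -0.81 to 0.62 among the HFCF livers labelled *HuR*Hep-/-.

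The wider pathway was read from 5 lists of 113 genes that hold none of the members. Between genotypes, 4 genes were called higher and 1 lower of 102 tested on chow, where 4.23% of all tested genes were called, and 1 higher and 2 lower of 108 on HFCF, where 6.79% were. These genotype counts rested on single libraries. On chow, 2 genes were called without WT replicate 1, 1 without WT replicate 3 or *HuR*Hep-/- replicate 1 and 0 without *HuR*Hep-/- replicate 2, and on HFCF 0 without WT replicate 1 or any 1 of the 3 *HuR*Hep-/- libraries and 5 without WT replicate 2. Between diets, 19 of 108 were called higher and 11 lower in WT. Of the same 108 genes, 31 were called higher and 14 were called lower in the livers labelled *HuR*Hep-/-. Over the whole set of tested genes 24.1% were called in WT and 38.9% in the livers labelled *HuR*Hep-/-. The latter list count of 45 was 30 without HFCF *HuR*Hep-/- replicate 1, and the WT count of 30 was 21 without chow WT replicate 1. The lists' median log2 difference was 0.03 and -0.00 between genotypes and 0.10 and 0.07 between diets. For the interaction 0 of 108 were called by limma.

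On chow, *Gpd2*, the mitochondrial glycerol-3-phosphate dehydrogenase, was higher in the livers labelled *HuR*Hep-/- by 0.63 on the log2 scale (adjusted p = 0.00708), at 38.8 ± 0.968 against 25.1 ± 0.912 CPM (SD, n = 3). *Pgm3*, a phosphoglucomutase family enzyme of amino sugar synthesis, was higher by 0.54 (adjusted p = 0.0193) and the intracellular glucose transporter gene *Slc2a8* by 0.48 (adjusted p = 0.0199). *Pdk1*, a kinase that inhibits pyruvate dehydrogenase, fell by 0.58 on chow (adjusted p = 0.0283) and fell by 0.65 on HFCF (adjusted p = 0.0189). On HFCF the mitochondrial carboxykinase gene *Pck2* was higher by 0.60 (adjusted p = 0.0291) and *Ppp1cb*, a catalytic subunit of protein phosphatase 1, fell by 0.26 (adjusted p = 0.0465). When each library was left out in turn, the *Gpd2* call was lost without chow *HuR*Hep-/- replicate 2 (adjusted p = 0.0520). The chow calls of *Pgm3*, *Slc2a8* and *Pdk1* held only without chow WT replicate 2 or chow *HuR*Hep-/- replicate 3, with adjusted p up to 0.0916, 0.107 and 0.130 otherwise. The HFCF calls of *Pck2* and *Pdk1* held only without HFCF WT replicate 2 or 3 (up to 0.122 and 0.0915 otherwise), and that of *Ppp1cb* only without HFCF WT replicate 2 (up to 0.169).

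Between diets, 13 of the 32 genes of the glycolysis list rose and 2 fell in the livers labelled *HuR*Hep-/-, where 38.9% of all tested genes were called, and 4 rose and 2 fell in WT, where 24.1% were. The 13 include *Eno2* and *Hkdc1*, which did not pass the filter on the chow libraries alone and were tested only through their level on HFCF. Of the gluconeogenesis list, 7 of 17 rose in each genotype, and 2 fell in WT and 1 in the livers labelled *HuR*Hep-/-. Of the glycogen list, 4 of 28 rose and 3 fell in WT, and 8 rose and 4 fell in the livers labelled *HuR*Hep-/-. Among 25 regulators, 2 rose and 4 fell in WT, and 2 rose and 6 fell in the livers labelled *HuR*Hep-/-. Of 6 tested glucose transporters, 2 rose in WT (*Slc2a1* and *Slc2a4*), and 1 rose (*Slc2a4*) and 1 fell (*Slc2a8*) in the livers labelled *HuR*Hep-/-. None of these differences between genotypes was called as an interaction. *Slc2a4*, and *Ppp1r3d* among the glycogen rises in the livers labelled *HuR*Hep-/-, did not pass the filter on the chow libraries alone. They were tested only through their level on HFCF, so their place in these counts is a description.

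**Figure D4:**
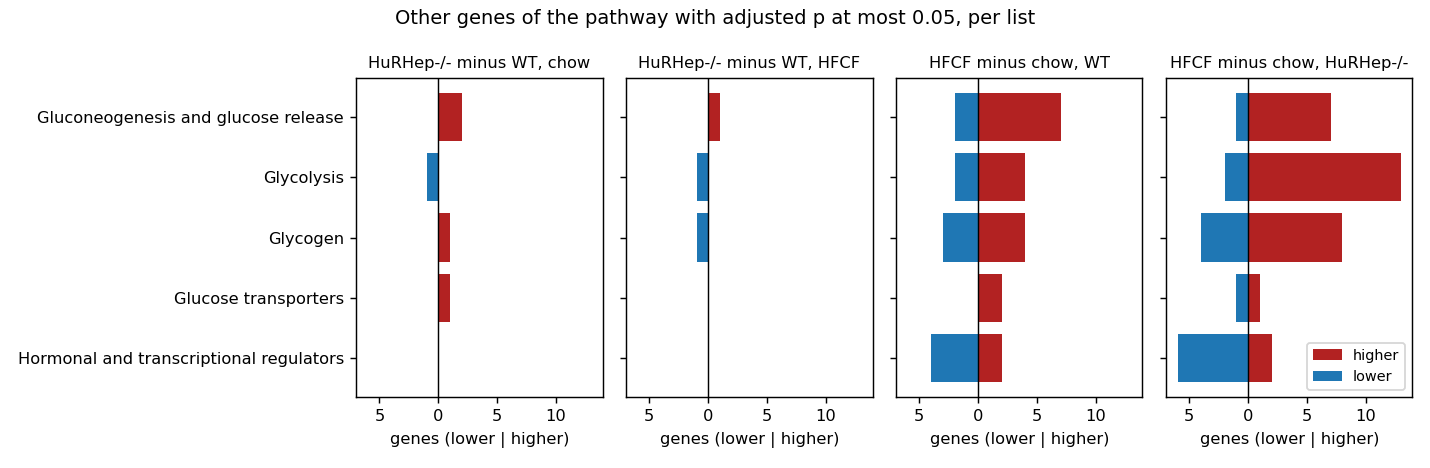
Number of genes (x axis) of 5 wider lists (rows) that were called higher (red, to the right) or lower (blue, to the left) by limma in each of the 4 comparisons. The diet panels hold 30 called genes in WT and 45 in the livers labelled *HuR*Hep-/-, against 5 and 3 in the genotype panels.

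Among the diet rises in the wider lists, *Srebf1*, a lipogenic transcription factor, rose by 1.73 on the log2 scale in WT (adjusted p = 0.000647), to 411 ± 96.1 from 125 ± 37.2 CPM, and by 1.66 in the livers labelled *HuR*Hep-/- (adjusted p = 0.000386). *Pdk4*, a fasting-induced pyruvate dehydrogenase kinase, rose by 2.13 in WT (adjusted p = 0.0122) and by 1.76 in the livers labelled *HuR*Hep-/- (adjusted p = 0.0187). The hexokinase gene *Hk2* rose by 2.20 in the livers labelled *HuR*Hep-/- (adjusted p = 0.00441) and by 1.65 in WT (adjusted p = 0.0273). *Slc2a4*, the insulin-responsive GLUT4 of muscle and fat, had 0.186 ± 0.105 CPM in chow WT and 2.29 ± 1.41 in HFCF WT, and 0.293 ± 0.0551 and 4.82 ± 2.17 CPM in the livers labelled *HuR*Hep-/-. *Eno2*, an enolase of other tissues, had 0.0713 ± 0.0478 CPM on chow and 0.363 ± 0.157 on HFCF in the livers labelled *HuR*Hep-/-. Both did not pass the filter on the chow libraries alone and were tested only through their level on HFCF, so their levels are a description. They are among 6 such genes of the 108, of which 1 is counted as called between diets in WT and 4 in the livers labelled *HuR*Hep-/-.

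Among the falls, the brain-type aldolase gene *Aldoc* fell by 1.49 in WT (adjusted p = 0.00518) and fell by 1.62 in the livers labelled *HuR*Hep-/- (adjusted p = 0.00192). *Got1*, the cytosolic aspartate aminotransferase, fell by 1.04 in WT (adjusted p = 0.00959), from 303 ± 36.1 to 151 ± 40.9 CPM, and *Stbd1*, a glycogen-binding protein, fell by 0.52 in WT (adjusted p = 0.0214) and fell by 0.48 in the livers labelled *HuR*Hep-/- (adjusted p = 0.0195). In the livers labelled *HuR*Hep-/-, *Trib3*, a pseudokinase that restrains insulin signalling, fell by 1.13 (adjusted p = 0.0148) and *Ppargc1a*, a coactivator of gluconeogenic transcription, fell by 0.91 (adjusted p = 0.0241). The *Trib3* call was lost without HFCF *HuR*Hep-/- replicate 1 (adjusted p = 0.0618), and that of *Ppargc1a* without chow *HuR*Hep-/- replicate 1 or 3 or HFCF *HuR*Hep-/- replicate 1 (up to 0.0897). The *Stbd1* call in WT was lost without chow WT replicate 1 or 3 or HFCF WT replicate 3 (up to 0.0805).

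The sequences of the members were read for what they share. RefSeq promoters were found for 7 of 9 members, all but *Gys2* and *Ppp1r3b*, and *Pfkfb1* had 4 of them. The letters searched on both strands, with the share of all 32851 promoters that hold them, were ACGTCA (7.51%), TGTTTTG (6.28%), TGTTTNC (20.5%), the E-box CACGTG (7.15%), TATAAA (13.6%), GTTAAT (7.10%) and CCAAT (37.4%). They were chosen with the member sequences in view, the TGTTTNC and TGTTTTG letters can overlap, and a match describes letters in the window only. No member promoter held CACGTG, and those of *Pygl* and *Pfkl* and 1 of the 4 of *Pfkfb1* held none of the letters searched.

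In the 3′ untranslated regions the pentamer ATTTA, the core of AU-rich elements, was counted because HuR binds such stretches. In the annotated transcript with the longest coding sequence, *Slc2a2* had 5 in 3883 bases, *Ppp1r3b* 4 in 3271, *G6pc* 3 in 1104, *Pfkl* 3 in 1263, and *Pck1*, *Pfkfb1* and *Gys2* 1 each in 627, 256 and 234 bases. *Fbp1* and *Pygl* had 0, in 223 and 172 bases. Over 13162 tested coding genes the median was 1 pentamer in 940 bases, and 65.1% of genes had at least 1. The most AT-rich stretch of 25 bases holding the pentamer is shown for the members called in any comparison, with the pentamer in capitals and coordinates on GRCm38. They lie at chrX:150643826-150643850 (plus strand), chr10:77987802-77987826 (minus), chr3:28730922-28730946 (plus), chr6:142422745-142422769 (minus) and chr8:35385882-35385906 (plus).
Pfkfb1: attctctgatgaataaagacATTTA
Pfkl: tatagtttgtttaATTTAtataagt
Slc2a2: ttaaaaattgtaaaaatgttATTTA
Gys2: atATTTAcatcctgacatctgaaat
Ppp1r3b: tttttATTTAtggtgtgtattataa
The called members thus had between 1 and 5 pentamers, and binding of HuR to them was not measured in these libraries.

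Words of 31 bases of each member's transcript were compared with the transcripts of all other genes. *G6pc*, *Fbp1*, *Pfkfb1* and *Gys2* shared 0% of them, *Ppp1r3b* 0.277%, *Pck1* 0.534%, *Slc2a2* 0.614%, *Pfkl* 0.757% and *Pygl* 3.15%, the last with the annotated gene *Gm47451* alone. How the authors' counting treated reads that match several genes was not tested.

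For each member the tested gene whose log2 CPM followed it most closely over the 12 libraries was taken as a description, without a test. *Gys2* was followed by *Luc7l* (Pearson r = 0.97), *Slc2a2* by *Rps6kb1* (0.96), *Pfkl* by *Ctbp2* (0.95), *Ppp1r3b* by *1810011O10Rik* (0.95) and *Pck1* by the amino acid transporter gene *Slc38a2* (0.94). *Pfkfb1* was followed by *Slc25a38* (0.93), *Pygl* by *Paox* (0.92), *Fbp1* by *Slc35a4* (0.88) and *G6pc* by *Wnt2b* (0.82). Each is the highest of 14534 values, and the libraries share group and deposited table, so group differences alone raise these values. *G6pc* and its nearest gene were the least alike of the 9 pairs, and no member was the nearest gene of another.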

How the data were processed

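Total RNA from mouse liver (RNA integrity above 6.0 per the labels) was sequenced from stranded NEBNext libraries. For the chow livers the authors' methods name CLC Genomics Workbench and GRCm38.p6, and for HFCF the counter is not given in the sources used here. The authors deposited raw counts in 2 tables without normalization. The deposited counts are text with commas, which were removed. They were converted to log2 CPM (pseudocount 0.5) with TMM factors and tested with limma 3.58.1 (trend) in R 4.3.3, with Benjamini-Hochberg adjustment over all genes that passed a filter (about 10 counts, scaled for depth, in at least 3 libraries and 15 in all). Genotype was tested within each table of 6 libraries, and diet and interaction over all 12. A fold change is on the log2(value + pseudocount) scale. Exon lengths and coordinates were taken from GENCODE M21.

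Members and lists were chosen with earlier results of these data known. Named were all 9 members, *Elavl1*, the 3 largest called rises and falls of the wider lists and the nearest gene of each member. The study describes the chow libraries as 3 mice per group. For HFCF the labels number replicates without saying that they are separate mice, so those p-values cover only the spread between libraries, which may be technical. The test was also run on simulated counts with known changes, and that outcome is not given here. Alternatives were other scaling factors, filters, pseudocount and weights, a replicate block and leaving out each library. A permutation test of 3 against 3 libraries cannot give a p below 0.1, so limma was used.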

Additional observations from a re-analysis of the deposited data

Results flagged for a closer look

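For 2 genes of the wider glycogen list, all libraries labelled *HuR*Hep-/- lay on one side of WT on chow and on the other side on HFCF. Genotype groups did not overlap for 29.5% of all tested genes on chow and 36.8% on HFCF. The share of all genes that changed sides in this way is not given here, so the 2 genes are a description. *Pygm*, the muscle glycogen phosphorylase, had 0.691, 0.803 and 0.817 CPM in chow WT and 0.522, 0.557 and 0.400 CPM in chow livers labelled *HuR*Hep-/-. On HFCF it had 1.06, 0.641 and 0.699 CPM in WT and 1.35, 1.45 and 1.32 CPM in the livers labelled *HuR*Hep-/-. Its genotype difference was 1.44 larger on HFCF on the log2 scale (standard error 0.34), and the limma interaction test was not passed (adjusted p = 0.147). These are 13 to 56 counts in a library.

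*Phkg2*, a catalytic subunit of phosphorylase kinase, had 23.2, 23.1 and 22.3 CPM in chow WT and 23.9, 24.6 and 25.5 CPM in chow livers labelled *HuR*Hep-/-, and on HFCF 17.7, 20.6 and 17.7 CPM in WT and 16.8, 16.8 and 17.0 CPM in the livers labelled *HuR*Hep-/-. The interaction was -0.25 (standard error 0.099, adjusted p = 0.292) and was not passed either. None of the 9 members showed such a pattern. With 3 libraries a group, no library was tested for standing apart from its group.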

How the results depend on the processing

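The 6 calls among the members kept their direction under every alternative run. With a fold change of at least 1.5 required as well, 0 members were called between genotypes on HFCF and 0 between diets in the livers labelled *HuR*Hep-/-. Leaving out each library gave 0 to 1 called members between genotypes on chow, 0 to 1 on HFCF, 1 to 3 between diets in WT, 2 to 4 in the livers labelled *HuR*Hep-/-, and 0 for the interaction. Same-numbered libraries deviated together with correlations of -0.028, 0.112 and -0.016 on chow and 0.1, 0.21 and 0.09 on HFCF, so the numbers were not taken as pairs. With a replicate block, 2 members were called between genotypes on HFCF (*Ppp1r3b* was added, adjusted p = 0.0296) and 4 between diets in the livers labelled *HuR*Hep-/- (*Pck1* and *Gys2* were added, adjusted p = 0.0184 and 0.0476). The block changed no other member's call, and moved the count over all genes from 572 to 341 between genotypes on chow.

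Uncalled estimates that changed sign ranged, when each library was left out, for genotype on chow from -0.08 to 0.05 (*Fbp1*), -0.08 to 0.07 (*Pfkl*) and -0.09 to 0.06 (*Slc2a2*), for genotype on HFCF from -0.15 to 0.57 (*Pck1*), -0.26 to 0.31 (*G6pc*) and -0.23 to 0.02 (*Gys2*), and for diet in WT from -0.04 to 0.16 (*G6pc*). For diet in the livers labelled *HuR*Hep-/- they ranged from -0.34 to 0.23 (*G6pc*) and -0.10 to 0.05 (*Pygl*), and for the interaction from -0.46 to 0.25 (*Pck1*), -0.41 to 0.17 (*G6pc*) and -0.02 to 0.17 (*Pygl*). Upper-quartile factors turned the diet estimate of *Pygl* in the livers labelled *HuR*Hep-/- to 0.04. They also moved the share of higher among all called genes from 54.2% to 48.5% between genotypes on chow, from 41.9% to 53.2% between genotypes on HFCF, from 46.8% to 56.9% between diets in WT and from 50.8% to 63.5% in the livers labelled *HuR*Hep-/-, with a median shift of at most 0.081.

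Counts over all genes depended on the fit. One fit over all 12 libraries called 948 genes between genotypes on chow and 1619 on HFCF, where 572 and 971 are reported, and 11 genes of the wider lists on HFCF where 3 are reported (5 with voom weights, 6 with the replicate block). Leaving out a library gave 9 to 535 genes on chow and 28 to 1280 on HFCF. Between diets in WT it gave 1979 to 3956 genes, and the 6 WT libraries alone gave 2059 where 3508 are reported. The interaction was called for 1 gene without a filter or with voom weights and for up to 41 when a library was left out. The cause was not tested.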
